A study of Mus musculus with 12 samples.

Results

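This comparison asks what removing 80% rather than 70% of the liver changed in the remnant on postoperative day 3. The PH80 group (80% resection, 3 libraries) was set against the PH70 group (70% resection, 3 libraries), all from wild-type male C57Bl/6J mice whose labels name no added agent. Genes were kept where at least 3 of these 6 libraries held a value of 10 or more, which left 12268 of the 13554 genes in the table. At the edge of that rule, 189 genes reached 10 in exactly 3 libraries (median of their mean values 11.8) and 256 left out genes did so in exactly 2 (median 8.64). Partial hepatectomy is the surgical removal of liver lobes, after which the hepatocytes of the remnant leave quiescence, divide and restore the mass of the organ while they go on making plasma proteins, glucose, urea and bile acids. The larger the resection, the smaller the remnant that carries this load and receives the portal blood, and extended resection in mice is used as a model of liver insufficiency after surgery. No source used here gives the age of the mice or the time of day of sampling.

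The whole series has 12 libraries in 4 groups of 3, and the other 2 groups, labelled HC and G-CSF with HNF4a, also had 80% resections. Those 6 libraries entered the fit only to estimate the spread, and no value of theirs is reported. Values are normalised reads, counts scaled by a single factor in each library. The recovered depth was 14.97 M, 28.6 M and 20.5 M reads in PH80, against 38.5 M, 13.4 M and 9.72 M in PH70 (M, 1e6). Libraries differed in how expression followed transcript length: for each doubling of length the log2 value changed by -0.21, -0.03 and -0.02 in PH80, against -0.03, 0.09 and 0.21 in PH70. In a principal component analysis of the 6 libraries, the axis with 45.4% of the variance separated the groups, with PH80 replicate 3 the PH80 library nearest to PH70. All 10 liver identity markers (albumin and other hepatocyte products) were present at high levels, with summed values of 3227396 to 3837802 in PH80 and 4212782 to 4701377 in PH70.

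More genes fell than rose after the larger resection under the deposited scaling, and slightly fewer with every library set to the same total. Against PH70, PH80 had 349 genes that fell and 140 that rose (limma on log2(value + 1), Benjamini-Hochberg adjusted p under 0.05). Single genes are given with their log2 change, PH80 minus PH70, and its standard error (SE). These calls are 3.99% of the genes tested, 2.84% for lower and 1.14% for higher genes, and 2644 genes had an unadjusted p under 0.05. The counts of called members in each list below are to be read beside these shares. Of the called genes, 224 fell and 115 rose at least 2-fold, and 43 and 28 at least 4-fold. Calls among abundant transcripts were mostly lower. Among 274 genes with a mean of at least 10000 normalised reads, 18 fell and 1 rose, and among 2749 genes between 1000 and 10000, 135 fell and 22 rose. Among 2659 genes with a mean under 100, 34 fell and 37 rose. The genes called lower held 2.09%, 1.81% and 2.64% of all normalised reads in PH80, against 4.71%, 4.96% and 4.35% in PH70. The genes called higher held 0.644%, 0.596% and 0.553% in PH80, against 0.239%, 0.208% and 0.222% in PH70. These shares describe the calls, which rest on the same values.

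**Figure D1:**
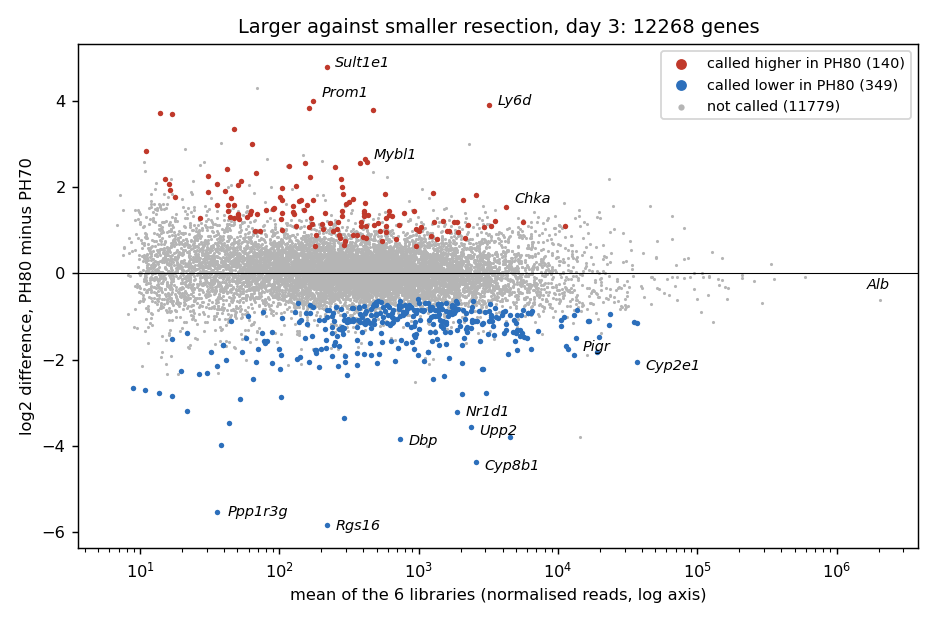
Each point is 1 of 12268 genes, with its mean normalised reads over the 6 libraries on a log axis and its log2 difference, PH80 minus PH70, on the other axis; red points were called higher (140) and blue points lower (349) in PH80. Most called genes above 10000 normalised reads lie below 0, and Alb, the most abundant, lies below 0 without being called.

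The balance of the calls depended on the scaling, and their number on single libraries. The median log2 difference over all tested genes was 0.01, with the middle 50% of genes between -0.28 and 0.33 and 51.2% of genes above 0. With every library set to the same total this median moved to 0.13, and 129 genes rose and 111 fell. Of the 489 called genes, 486 had no overlap between the 3 PH80 and the 3 PH70 values, which over all tested genes was the case for 12.9% (PH80 above) and 14.3% (PH80 below). The count models edgeR and DESeq2, run on the recovered reads, both called 258 of the lower and 114 of the higher genes. Calls numbered 61 without PH70 replicate 2, 170 without PH70 replicate 1, 277 without PH70 replicate 3, 124 without PH80 replicate 1 and 157 without PH80 replicate 2, against 492 without PH80 replicate 3. Over the 26 alternative analyses, 39 genes were called in every one that tested them, 31 lower and 8 higher.

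**Figure D2:**
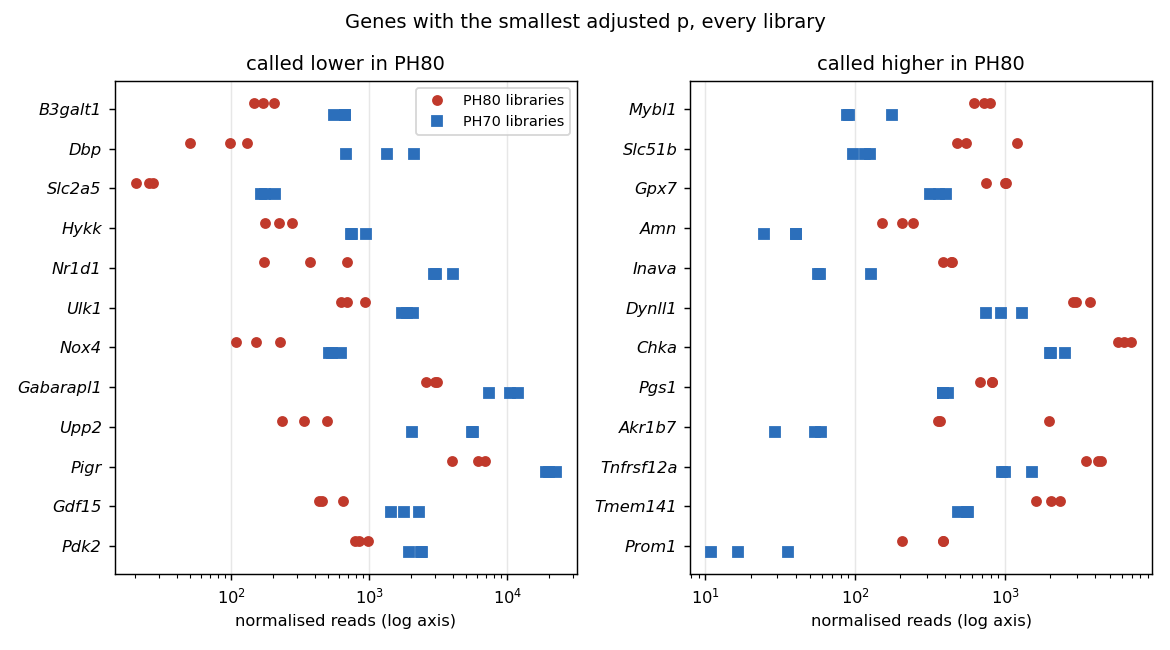
Normalised reads of every library on a log axis for the 12 lower and 12 higher genes with the smallest adjusted p, red circles for the 3 PH80 libraries and blue squares for the 3 PH70 libraries of each gene. The rule that picked these 24 genes also required PH80 and PH70 values that do not overlap and a mean of at least 50.

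Clock output genes gave some of the deepest falls in PH80. The circadian clock is a feedback loop in which the activators CLOCK and BMAL1 (with NPAS2) drive their own repressors and a set of output factors. Of 24 tested clock and output genes, 8 fell and 2 rose (41.7% called, against 3.99% of all genes), with a median log2 difference of -0.15 against 0.01 over all genes. Dbp, a PAR bZIP factor that carries clock timing to metabolic genes (chromosome 7, 45705088 to 45710203), had 97.04, 50.1 and 129 normalised reads in PH80, against 2113, 1339.9 and 671 in PH70. Its lowest PH70 library held more than 5 times the highest PH80 library (log2 change -3.84, SE 0.41, adjusted p = 0.0007197). Nr1d1, which encodes the repressor REV-ERB alpha (chromosome 11, 98767932 to 98775333), had 173, 369 and 692 normalised reads in PH80, against 4027, 3024 and 2955 in PH70 (log2 change -3.22, SE 0.38, adjusted p = 0.00136). PH80 replicate 3 was the highest of its group for both genes and still lay far below every PH70 library. Bhlhe41, a repressor that binds E-boxes, had 7.03, 1.495 and 3.12 normalised reads in PH80, against 82.3, 95.05 and 40.1 in PH70 (log2 change -3.99, SE 0.59, adjusted p = 0.004602). It was close to the limit of detection in all PH80 libraries and did not overlap with PH70. The other PAR bZIP factors Tef (log2 change -1.81, adjusted p = 0.00665) and Hlf (log2 change -1.26, adjusted p = 0.00619) fell as well. So did Nr1d2, the paralog of Nr1d1 (log2 change -1.89, adjusted p = 0.0122), Cry2 (log2 change -0.97, adjusted p = 0.0276) and Bhlhe40 (log2 change -1.40, adjusted p = 0.0449).

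The 2 clock genes that rose were Npas2 and Cry1. Npas2, the alternative partner of BMAL1, had 184, 141 and 166 normalised reads in PH80, against 34.5, 25.6 and 75.8 in PH70, and Cry1, a repressor expressed late in the cycle, had 221, 138 and 199 normalised reads in PH80, against 71.4, 84.1 and 55.8 in PH70. Neither overlapped between groups (log2 change 1.97, adjusted p = 0.0107 for Npas2 and log2 change 1.38, adjusted p = 0.00889 for Cry1). The part of the time of day of sampling in these differences was not tested. The annotated spans of Dbp and Sphk2, and of Nr1d1 and Thra, overlap on opposite strands. The library kit keeps strand, but no source used here says whether the counting used it. The calls of Dbp, Nr1d1, Tef and Hlf were kept in all 26 alternatives. That of Bhlhe41 was kept in every alternative that tested it. A stricter filter (10 or more in all 6 libraries, or a mean of at least 50) left Bhlhe41 out. Each of the 12 libraries was also left out in turn. A pair of numbers after a gene gives how many of these 12 fits ended its call and its highest adjusted p among them, reached without PH70 replicate 2 unless another library is named. The calls of Nr1d2 (2 and 0.0709), Npas2 (2 and 0.0638), Cry2 (4 and 0.09404 without PH80 replicate 2) and Bhlhe40 (8 and 0.176) ended in this way.

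The promoter of Bhlhe41 is shown because it holds an E-box, the kind of element that clock activators and BHLHE41 itself are known to bind. It is given from RefSeq on GRCm38.p6 (chr6:145865371-145865670, minus strand, 250 bases before to 50 after the start of transcription), 5′ to 3′ on the gene's strand, with the E-box CACGTG and a CCAAT box in capitals.
Bhlhe41: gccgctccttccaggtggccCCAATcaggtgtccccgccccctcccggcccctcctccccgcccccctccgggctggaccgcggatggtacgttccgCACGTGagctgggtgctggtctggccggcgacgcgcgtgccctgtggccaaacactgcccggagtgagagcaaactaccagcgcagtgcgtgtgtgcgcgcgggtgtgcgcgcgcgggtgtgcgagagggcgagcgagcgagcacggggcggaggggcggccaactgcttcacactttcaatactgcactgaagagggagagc

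Genes of glucose and glycogen handling were called in 1 direction. Of 44 tested genes of gluconeogenesis, glycogen and glycolysis, 6 fell and 0 rose (13.6% called, against 3.99% of all genes, median log2 difference -0.38). Ppp1r3g, a subunit that brings protein phosphatase to glycogen after feeding, had 0, 0.748 and 1.04 normalised reads in PH80, against 57.5, 87.7 and 66.9 in PH70 (log2 change -5.53, SE 0.58, adjusted p = 0.0007197). These are 2 reads in all PH80 libraries together and 173 in PH70, so that PH70 was 98.3-fold higher with a 95% counting interval of 26.8 to 818. Gys2, the liver glycogen synthase, had 1145, 698 and 1021 normalised reads in PH80, against 2572, 2674 and 1985 in PH70 (log2 change -1.35, SE 0.21, adjusted p = 0.00552). Every PH80 library lay under every PH70 library. G6pc, the catalytic subunit that releases free glucose, had 2454, 1794 and 1446 normalised reads in PH80, against 5881, 8644 and 5983 in PH70 (log2 change -1.86, SE 0.30, adjusted p = 0.006702). Pklr, the liver pyruvate kinase, fell too (log2 change -1.501, adjusted p = 0.0202), as did Gbe1, the glycogen branching enzyme (log2 change -1.21, adjusted p = 0.0276), and the insulin receptor Insr (log2 change -0.69, adjusted p = 0.0419).

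Outside that list, further genes of sugar metabolism and its signalling were among the strongest calls. Rgs16, which limits G protein signals (chromosome 1, 153740349 to 153745468), had 4.22, 11.96 and 5.21 normalised reads in PH80, against 517, 362 and 422 in PH70, the largest fall of all called genes (log2 change -5.84, SE 0.80, adjusted p = 0.00364). Slc2a5, the fructose transporter GLUT5 (chromosome 4, 150119283 to 150144169), had 25.3, 20.2 and 27.1 normalised reads in PH80, against 206, 164 and 174 in PH70 (log2 change -2.86, SE 0.29, adjusted p = 0.0007197). Its groups were 7.26-fold apart with little spread within either. Pdk2, a kinase that switches off pyruvate dehydrogenase, had 976, 787 and 841 normalised reads in PH80, against 2372, 2393 and 1931 in PH70 (log2 change -1.36, SE 0.18, adjusted p = 0.00321), and its relative Pdk1, a hypoxia target, fell as well (log2 change -1.03, adjusted p = 0.0284). Txnip, an inhibitor of glucose uptake that was chosen after its values were seen, had 745, 562 and 575 normalised reads in PH80, against 2034, 1676 and 1844 in PH70 (log2 change -1.57, adjusted p = 0.004602). The calls of Gys2, Rgs16, Slc2a5, Pdk2 and Txnip were kept in all 26 alternatives. That of Ppp1r3g was kept in every alternative that tested it, and the stricter filter left it out. The calls of G6pc (1 and 0.05100), Pklr (3 and 0.0823), Gbe1 (5 and 0.122), Pdk1 (5 and 0.123) and Insr (7 and 0.146 without PH80 replicate 1) ended with single libraries left out.

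The G6pc promoter is shown as that of a liver gene which REV-ERB and ROR factors and feeding hormones are known to regulate (chr11:101367466-101367765, plus strand, same source and layout). The capitals mark the core of a ROR and REV-ERB element (TAGGTCA, here on the reverse strand as TGACCTA) and 2 CCAAT boxes.
G6pc: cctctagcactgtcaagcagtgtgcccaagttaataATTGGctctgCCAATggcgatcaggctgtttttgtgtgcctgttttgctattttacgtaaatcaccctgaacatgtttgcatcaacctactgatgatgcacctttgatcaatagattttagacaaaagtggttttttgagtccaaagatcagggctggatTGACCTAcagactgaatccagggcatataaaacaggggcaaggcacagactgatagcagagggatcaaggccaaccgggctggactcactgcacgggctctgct

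Bile acid enzymes and uptake carriers fell, and an efflux carrier rose. Bile acids are made from cholesterol in hepatocytes, taken up again from portal blood and exported to bile or back to blood. Of 19 tested genes of synthesis and its regulators, 3 fell and 0 rose (15.8% called, against 3.99% of all genes, median log2 difference -0.77, 18 of 19 below 0). Cyp8b1, the enzyme that commits the pathway to cholic acid (chromosome 9, 121914356 to 121916305), had 423, 37.4 and 711 normalised reads in PH80, against 5987, 3947 and 4344 in PH70 (log2 change -4.37, SE 0.86, adjusted p = 0.01602). PH80 replicate 2 was by far the lowest library, and the highest PH80 library held less than 1 in 5 of the lowest PH70 library. Slc27a5, which couples bile acids to coenzyme A, had 8303, 8401 and 9628 normalised reads in PH80, against 17330.2, 18848 and 15021 in PH70 (log2 change -0.96, SE 0.23, adjusted p = 0.0366). Cyp7b1, of the alternative pathway, had 1183, 755 and 2499 normalised reads in PH80, against 3758, 5833 and 2620.1 in PH70 (log2 change -1.56, adjusted p = 0.0393), and its PH80 replicate 3 lay just under the lowest PH70 library. Cyp7a1, the rate-limiting enzyme, did not pass: it had 1143, 79.2 and 988 normalised reads in PH80, against 2213, 1859 and 1356 in PH70 (a log2 difference of -1.98, SE 0.89, adjusted p = 0.217). The groups did not overlap, and without PH80 replicate 2, by far the lowest library, the log2 difference was -0.738 (adjusted p = 0.579).

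Of 29 tested transporters of bile acids, anions and cations, 1 rose and 2 fell (10.3% called, against 3.99% of all genes, median log2 difference -0.60). Slc51b, a subunit of the exporter OST that returns bile acids to blood (chromosome 9, 65412714 to 65422955), had 474, 1192 and 548 normalised reads in PH80, against 117, 96.9 and 125 in PH70 (log2 change 2.58, SE 0.38, adjusted p = 0.004602). PH80 replicate 2 was highest and no PH80 library fell below 3 times any PH70 library. Slc10a1, the sodium-dependent uptake carrier NTCP, had 2004, 3215 and 3779 normalised reads in PH80, against 9344, 10511 and 5347 in PH70 (log2 change -1.48, SE 0.28, adjusted p = 0.0141). Slco1a1, an organic anion carrier, had 398, 277 and 2692 normalised reads in PH80, against 5586, 6816 and 2549 in PH70 (log2 change -2.78, adjusted p = 0.0346), and here PH80 replicate 3 lay within the PH70 range. The calls of Cyp8b1 (2 and 0.0707), Slc10a1 (3 and 0.0842), Slco1a1 (5 and 0.153), Slc27a5 (7 and 0.161) and Cyp7b1 (7 and 0.184) ended with single libraries left out, while Slc51b was called in all 26 alternatives.

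Cyp8b1 is a known target of the hepatocyte factor HNF4A, and its promoter is shown for that element (chr9:121916256-121916555, minus strand, same source and layout), with CAAAGTCCA in capitals.
Cyp8b1: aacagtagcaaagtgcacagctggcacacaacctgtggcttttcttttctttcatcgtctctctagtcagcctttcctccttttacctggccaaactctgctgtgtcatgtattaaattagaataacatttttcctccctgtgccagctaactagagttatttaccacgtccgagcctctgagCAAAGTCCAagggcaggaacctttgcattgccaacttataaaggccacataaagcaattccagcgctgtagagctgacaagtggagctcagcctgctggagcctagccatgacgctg

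Enzymes of drug and steroid metabolism fell in several families. Cytochrome P450 enzymes oxidise drugs, steroids and fatty acids, mostly in hepatocytes around the central vein. Of 51 tested genes of families 1 to 4, 11 fell and 0 rose (21.6% called), and 45 of 51 had a negative difference (median -0.66). Cyp2e1, which oxidises ethanol (chromosome 7, 140763739 to 140774987), had 10157, 10802 and 23914 normalised reads in PH80, against 57958, 76356 and 42125 in PH70 (log2 change -2.05, SE 0.34, adjusted p = 0.00772). PH80 replicate 3 was about 2-fold above the other PH80 libraries and below all PH70 libraries. Cyp2a5 had 2825, 2745 and 3084 normalised reads in PH80, against 8516, 7325 and 5923 in PH70 (log2 change -1.32, SE 0.23, adjusted p = 0.0105), with PH80 values close together. Cyp2f2, of periportal hepatocytes, had 8319, 4411 and 8898 normalised reads in PH80, against 15896, 24617 and 18461 in PH70 (log2 change -1.49, SE 0.29, adjusted p = 0.0159), and Cyp2c37 had 316, 329 and 874 normalised reads in PH80, against 2981, 3294 and 1340.2 in PH70 (log2 change -2.39, adjusted p = 0.01596). The other 7 fallen members had log2 changes between -1.10 (Cyp2d9) and -2.46 (Cyp2c54). The mean of the list above the PH70 mean was -0.75, -1.17 and -0.33 in PH80 replicates 1 to 3, against 0.21, 0.24 and -0.45 in PH70 on the log2 scale, so that PH80 replicate 3 and PH70 replicate 3 overlapped. In bulk liver RNA, fewer cells of a type and less RNA per cell cannot be told apart.

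Of 44 tested conjugating enzymes, 6 fell and 1 rose (15.9% called, against 3.99% of all genes, median -0.36). The one that rose was Sult1e1, the estrogen sulfotransferase (chromosome 5, 87575969 to 87591594), which had 181, 1008 and 93.8 normalised reads in PH80, against 4.24, 7.31 and 17.8 in PH70 (log2 change 4.79, SE 1.06, adjusted p = 0.0266). PH80 replicate 2 held most of the PH80 signal, and the lowest PH80 library still lay over 5 times above the highest PH70 library. Sult1c2 (log2 change -1.89, adjusted p = 0.0179), the UDP-glycosyltransferase Ugt3a2 (log2 change -1.38, adjusted p = 0.0202) and the glucuronosyltransferase Ugt2a3 (log2 change -1.02, adjusted p = 0.0266) fell. Sult2a8, which sulfates bile acids in mice, had 544, 93.5 and 1782 normalised reads in PH80, against 12159.9, 10562 and 1916 in PH70 (log2 change -3.80, SE 0.99, adjusted p = 0.0491). It nearly met between groups in PH80 replicate 3 and PH70 replicate 3. Of 39 flavin monooxygenases, carboxylesterases and aldo-keto reductases, 6 fell and 1 rose (2 and 1 by edgeR, 9 and 2 by DESeq2). The increase was that of Akr1b7, which detoxifies lipid aldehydes (chromosome 6, 34412334 to 34423142), with 369.9, 1974 and 354 normalised reads in PH80, against 58.7, 29.2 and 53.5 in PH70 (log2 change 3.79, SE 0.60, adjusted p = 0.00649). All PH80 libraries were above all PH70 libraries, replicate 2 by the widest margin. The carboxylesterases Ces3b (log2 change -2.23, adjusted p = 0.0254) and Ces1b (log2 change -1.31, adjusted p = 0.0397, with overlapping groups) and the aldehyde oxidase Aox3 (log2 change -1.56, adjusted p = 0.0255) fell. Reads of near-identical members of these families, such as the Cyp2c, Ces and Ugt genes, could be split by the counting, so their single values are uncertain.

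Genes that depend on growth hormone pulses, or are higher in male than in female liver, had the lowest median of all 58 lists. Of 29 tested, 8 fell and 0 rose (27.6% called, with 2 called lower by edgeR and 10 by DESeq2). All 29 had a negative difference (median -1.10, and -0.67 without PH80 replicate 2). Those that fell included the receptor Ghr (log2 change -1.30, adjusted p = 0.0403), its transducer Stat5b (log2 change -0.85, adjusted p = 0.0491), the male-biased Cyp2d9, with 13273, 8116 and 10809.9 normalised reads in PH80, against 22863, 21018 and 23938 in PH70 (log2 change -1.10, adjusted p = 0.03600), and C8b and Cyp7b1, described with their pathways. The mean of the list above the PH70 mean was -0.93, -1.98 and -0.46 in PH80, against -0.02, 0.22 and -0.19 in PH70. Every PH80 library lay below every PH70 library, replicate 2 most and replicate 3 least. Major urinary proteins, secreted male-biased carriers, had 1 called gene of 8 tested, Mup21 (log2 change -2.09, adjusted p = 0.0206), and their near-identical copies make single values uncertain.

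Among markers of hepatocyte position, 6 of 38 pericentral genes fell (median -0.64) and 3 of 32 periportal genes fell (median -0.26), and none rose in either list. The pericentral genes that fell were Cyp2e1, Cyp2a5, Cyp2c37 and Cyp1a2, all P450 enzymes, with Slc1a2, a glutamate transporter (420.5, 809.7 and 858 in PH80 and 1324, 1857 and 1998 in PH70, log2 change -1.36, adjusted p = 0.0202), and Glul, the glutamine synthetase of the cells at the vein (6240.1, 4236 and 9049.6 in PH80 and 11062, 16753 and 16187 in PH70, log2 change -1.22, adjusted p = 0.0336). The periportal ones were Pigr, G6pc and Cyp2f2. Whether the 2 zones differ in their loss was not tested. The calls of Ghr (7 and 0.176), Stat5b (8 and 0.174), Cyp2d9 (8 and 0.122), Mup21 (4 and 0.116), Sult1c2 (3 and 0.0678 without PH80 replicate 2), Ugt3a2 (4 and 0.116), Ugt2a3 (4 and 0.128), Ces3b (4 and 0.122), Ces1b (6 and 0.173) and Aox3 (4 and 0.136) ended with single libraries left out, as did those of Cyp2e1 (1 and 0.0571), Cyp2a5 (1 and 0.0619), Cyp2f2 (2 and 0.0901), Cyp2c37 (4 and 0.0901), Slc1a2 (3 and 0.102), Sult1e1 (4 and 0.116), Glul (4 and 0.151) and Sult2a8 (7 and 0.197). Without PH80 replicate 2 the P450 median was -0.53.

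Pigr and 4 complement genes fell, and clotting genes gave 1 call. Pigr, the receptor that carries IgA into bile (chromosome 1, 130826684 to 130852249), had 6114, 3943 and 6826 normalised reads in PH80, against 18987, 22489.5 and 20002 in PH70 (log2 change -1.90, SE 0.25, adjusted p = 0.00298). All PH80 libraries held less than 4 in 10 of the lowest PH70 library, and the call was kept in all 26 alternatives. Of 20 complement genes made by hepatocytes, 4 fell and 0 rose (20% called, against 3.99% of all genes), and all 20 had a negative difference (median -0.66). C8b, of the membrane attack complex, had 3582, 2956 and 5936 normalised reads in PH80, against 9081, 13251 and 8609.6 in PH70 (log2 change -1.35, SE 0.27, adjusted p = 0.01701). C1s1 (log2 change -0.87, adjusted p = 0.0276) and C1ra (log2 change -0.90, adjusted p = 0.0338), the proteases of the C1 complex, and C2 (log2 change -0.82, adjusted p = 0.0339), a part of the C3 convertase, fell less. C1s1 and C1ra have close copies in the mouse genome. The list lay at -0.66, -0.74 and -0.38 in PH80, against -0.11, 0.13 and -0.02 in PH70, relative to the PH70 mean on the log2 scale, with no overlap.

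Of 22 coagulation and fibrinolysis genes 1 fell, Klkb1, plasma prekallikrein (log2 change -0.97, adjusted p = 0.0197). This is 4.55%, against 2.84% of all genes called lower and 3.99% called in either direction. Of the 22, 20 had a negative difference (median -0.44) and 9 had an unadjusted p under 0.05. Without overlap, 13 lay below PH70 and 0 above, against 14.3% and 12.9% of all genes tested. Of 27 plasma carriers and apolipoproteins 2 fell (7.41% called, against 3.99% of all genes), the hepatic lipase Lipc (log2 change -1.14, adjusted p = 0.0266) and Serpina6, the carrier of glucocorticoids (1509, 343 and 1484 in PH80 and 5515, 5767 and 2444 in PH70, log2 change -2.22, adjusted p = 0.0289). Alb, the most abundant transcript, had 1484320.5, 1548759.8 and 1857743 normalised reads in PH80, against 2316491, 2582343 and 2543564 in PH70, without overlap, and did not pass (a log2 difference of -0.61, SE 0.76, adjusted p = 0.673; adjusted p = 0.340 by edgeR and 0.0464 by DESeq2). The other 3 most abundant transcripts, Trf (-0.09), Ahsg (-0.13) and Hpx (0.22), had small log2 differences that did not pass, with overlapping groups. The calls of C8b (3 and 0.0974), C1s1 (5 and 0.129), C1ra (6 and 0.155), C2 (8 and 0.116), Klkb1 (3 and 0.107), Lipc (4 and 0.111) and Serpina6 (3 and 0.1400) ended with single libraries left out. The Pigr promoter is shown as that of an abundant gene whose fall held in every alternative (chr1:130826434-130826733, plus strand, same source and layout), with an E-box in capitals.
Pigr: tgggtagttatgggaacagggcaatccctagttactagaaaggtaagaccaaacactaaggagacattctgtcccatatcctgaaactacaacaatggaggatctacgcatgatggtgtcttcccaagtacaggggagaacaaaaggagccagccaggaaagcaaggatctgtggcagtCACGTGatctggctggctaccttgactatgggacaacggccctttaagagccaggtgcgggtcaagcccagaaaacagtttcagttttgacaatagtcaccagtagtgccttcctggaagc

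Acute phase genes were high in a single PH80 library. None of 24 passed (4 had an unadjusted p under 0.05, and the count models called 0 in edgeR and 1 in DESeq2), and their median log2 difference was 0.51, against 0.07 without PH80 replicate 2. They held 2.096%, 6.099% and 2.004% of all normalised reads in PH80, against 1.29%, 2.31% and 2.03% in PH70. Orm1, an acid glycoprotein, had 68789, 202438 and 64893 normalised reads in PH80, against 45370.3, 58915 and 37779 in PH70 (a log2 difference of 1.05, SE 0.63, adjusted p = 0.349), and haptoglobin (Hp) had 125704, 277880.5 and 114673 normalised reads in PH80, against 83207, 138898 and 168444 in PH70 (a log2 difference of 0.35, SE 0.57, adjusted p = 0.7600).

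Several enzymes that break down amino acids and pyrimidines fell. Of 53 tested genes of the urea cycle and amino acid catabolism, 8 fell and 0 rose (15.1% called, against 3.99% of all genes, median -0.40). Upp2, a uridine phosphorylase (chromosome 2, 58567298 to 58792971), had 231, 336 and 495 normalised reads in PH80, against 5572, 5584 and 2038 in PH70 (log2 change -3.56, SE 0.46, adjusted p = 0.00258). PH70 replicate 3 was the lowest of its group and still over 4 times above the highest PH80 library. Tdo2, the hepatic tryptophan dioxygenase, had 4337, 5231 and 6469.5 normalised reads in PH80, against 19177, 20387 and 12735 in PH70 (log2 change -1.69, SE 0.28, adjusted p = 0.00699). Csad, of taurine synthesis, had 679, 568 and 747 normalised reads in PH80, against 1842, 2736 and 1795 in PH70 (log2 change -1.66, adjusted p = 0.00772), and Dpyd, of pyrimidine breakdown, fell by less (log2 change -1.01, adjusted p = 0.01998). The other 4 fallen members had log2 changes between -0.85 (Sardh) and -1.22 (Glul). Hykk, the hydroxylysine kinase (chromosome 9, 54917283 to 54949924), which was not in the list, had 174, 222 and 273 normalised reads in PH80, against 736, 939.6 and 754 in PH70 (log2 change -1.87, SE 0.21, adjusted p = 0.000943). The groups stood clear of each other, and its call was kept in all 26 alternatives. The calls of Tdo2 (1 and 0.05100), Csad (1 and 0.0571) and Dpyd (3 and 0.116) ended with single libraries left out.

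Lipid genes moved in both directions. Among 39 tested genes of fat oxidation and ketone body synthesis, 3 fell and 1 rose (10.3% called, against 3.99% of all genes, median -0.42). Cpt1a, which admits fatty acids to mitochondria, had 1824, 3320.3 and 2785 normalised reads in PH80, against 5451, 6158 and 5842 in PH70 (log2 change -1.18, adjusted p = 0.0228). Bdh1, of ketone body metabolism, fell as well (log2 change -0.97, adjusted p = 0.0463). Hilpda, an inhibitor of lipolysis on lipid droplets, was the member that rose, with 260.2, 301 and 232 normalised reads in PH80, against 107, 53.01 and 91.4 in PH70 (log2 change 1.70, SE 0.28, adjusted p = 0.00772). Of 27 genes of fatty acid and triglyceride synthesis, 3 fell and 2 rose (18.5% called). Lpin1, a phosphatidate phosphatase, had 266, 246 and 269 normalised reads in PH80, against 541, 779 and 1175 in PH70 (log2 change -1.60, adjusted p = 0.0137), and Pparg (log2 change -1.17, adjusted p = 0.0107) and Dgat2, of triglyceride assembly (log2 change -0.92, adjusted p = 0.0174), fell. Pnpla3, a lipid droplet hydrolase, had 346, 122 and 312 normalised reads in PH80, against 58.1, 20.1 and 51.3 in PH70 (log2 change 2.56, SE 0.49, adjusted p = 0.0138). PH80 replicate 2 was the lowest PH80 library and above every PH70 library. Scd2, a fatty acid desaturase of fetal liver, rose near the threshold (log2 change 1.84, adjusted p = 0.0491). None of 25 cholesterol genes passed (unadjusted p under 0.05 in 2, called by edgeR 0 and by DESeq2 1).

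Outside these lists, 2 enzymes of phospholipid synthesis rose. Chka, choline kinase alpha (chromosome 19, 3851773 to 3894369), had 6967, 5688 and 6197 normalised reads in PH80, against 1988, 2024 and 2518 in PH70 (log2 change 1.53, SE 0.24, adjusted p = 0.006297), and Pgs1, of cardiolipin synthesis, had 819.9, 823 and 678 normalised reads in PH80, against 413, 386 and 388 in PH70 (log2 change 0.96, SE 0.15, adjusted p = 0.006297). Both had narrow ranges and no overlap. Among 21 tested retinoid genes, Rdh16 (log2 change -1.24, adjusted p = 0.0202) and Cyp26b1 (log2 change -1.76, adjusted p = 0.0448) fell, and Pnpla3, described above, rose. The calls of Lpin1 (1 and 0.0651), Pparg (2 and 0.0638), Pnpla3 (2 and 0.0745), Dgat2 (4 and 0.0778), Cpt1a (4 and 0.113), Bdh1 (9 and 0.189), Rdh16 (4 and 0.113), Cyp26b1 (7 and 0.166 without PH80 replicate 1) and Scd2 (9 and 0.188 without PH80 replicate 1) ended with single libraries left out. The call of Chka was kept in all 26 alternatives.

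Some hepatocyte transcription factors fell. Of 40 tested, 5 fell and 1 rose (15% called, against 3.99% of all genes, median -0.31, 33 of 40 below 0). Cebpa, a factor of differentiated hepatocytes, had 3160.1, 1692 and 3393 normalised reads in PH80, against 6628, 6798 and 6772 in PH70 (log2 change -1.36, SE 0.23, adjusted p = 0.00815). PH70 values were almost equal, and PH80 replicate 2 was the lowest. Klf9 (128, 381 and 331 in PH80 and 723, 1269 and 1209 in PH70, log2 change -2.03, adjusted p = 0.0107) and Klf10 (log2 change -1.90, adjusted p = 0.0111) fell, as did the fatty acid sensor Ppara (log2 change -1.66, adjusted p = 0.0141). Ppard, another fatty acid sensor, was the one that rose, with 761, 437 and 574 normalised reads in PH80, against 202, 190.1 and 272 in PH70 (log2 change 1.39, SE 0.23, adjusted p = 0.00714). Hnf4a, a central factor of hepatocyte identity, had 7482, 12708 and 10237 normalised reads in PH80, against 12438, 15554 and 12001 in PH70 and did not pass (a log2 difference of -0.42, SE 0.23, adjusted p = 0.314). Nor did the groups separate, as PH80 replicate 2 exceeded 2 PH70 libraries. The calls of Cebpa (1 and 0.05100), Klf9 (1 and 0.0672), Klf10 (1 and 0.0709), Ppard (1 and 0.0518) and Ppara (4 and 0.0823) ended with single libraries left out.

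Of 20 tested immediate early genes, which respond to stimuli without new protein synthesis, 4 fell and 1 rose (25% called, against 3.99% of all genes). Dusp1, a phosphatase of MAP kinases, had 644, 373 and 296 normalised reads in PH80, against 1304, 2318 and 1589.9 in PH70 (log2 change -2.02, SE 0.29, adjusted p = 0.00459). Nr4a1, an orphan nuclear receptor, had 112, 130.1 and 58.3 normalised reads in PH80, against 340.1, 634 and 551 in PH70 (log2 change -2.36, adjusted p = 0.00889), and Zfp36 (log2 change -1.18, adjusted p = 0.0284) and Junb (log2 change -1.20, adjusted p = 0.0393) fell. Ier5 rose, with 775, 422 and 658 normalised reads in PH80, against 183, 208 and 339 in PH70 (log2 change 1.35, adjusted p = 0.0239). The 5 called genes did not overlap between groups. The annotated span of Dusp1 overlaps that of Ergic1 on the opposite strand, and that of Junb overlaps Prdx2. The calls of Nr4a1 (1 and 0.0619), Ier5 (4 and 0.122), Zfp36 (6 and 0.0955 without PH80 replicate 1) and Junb (7 and 0.153 without PH80 replicate 1) ended with single libraries left out, and that of Dusp1 was kept in all 26 alternatives.

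Single genes of autophagy fell, and stress genes were called in both directions. The called share was 14.3% for the integrated stress response and 11.1% for endoplasmic reticulum genes. It was 9.375% for oxidative stress genes, against 3.99% of all genes. Ulk1, the kinase that starts autophagy (chromosome 5, 110784488 to 110810097), had 624, 935 and 686 normalised reads in PH80, against 1867, 2077 and 1722 in PH70 (log2 change -1.35, SE 0.17, adjusted p = 0.00258). Gabarapl1, of the family that coats autophagosomes (chromosome 6, 129533160 to 129542346), had 2548, 2985 and 3103 normalised reads in PH80, against 11851, 10366 and 7394 in PH70 (log2 change -1.75, SE 0.22, adjusted p = 0.00258). Every PH80 library of both genes was below every PH70 library, and both calls were kept in all 26 alternatives. Gdf15, a stress cytokine, had 647, 434 and 454 normalised reads in PH80, against 1789, 1426 and 2272 in PH70 (log2 change -1.83, SE 0.25, adjusted p = 0.00321). Of 28 genes of the integrated stress response, 2 fell and 2 rose: Gdf15 and Trib3, a pseudokinase induced by ATF4 (73.1, 144 and 86.5 in PH80 and 461, 279.7 and 384 in PH70, log2 change -1.91, adjusted p = 0.00655), fell, while Psat1 (104, 340.2 and 198 in PH80 and 59.3, 53.01 and 31.2 in PH70, log2 change 2.03, adjusted p = 0.0159) and Psph (log2 change 1.11, adjusted p = 0.0141), both of serine synthesis, rose. Of 27 endoplasmic reticulum genes, Herpud1 (log2 change -1.15, adjusted p = 0.0141) and Crebrf (log2 change -1.73, adjusted p = 0.00534) fell and Manf (log2 change 1.19, adjusted p = 0.04999) rose. Among 32 oxidative stress genes, Gpx7, a peroxidase of the endoplasmic reticulum, had 1015, 1001 and 746 normalised reads in PH80, against 406, 360.1 and 317 in PH70 (log2 change 1.34, SE 0.20, adjusted p = 0.00492). Catalase (Cat, log2 change -1.14, adjusted p = 0.0412) and Gclc (log2 change -1.07, adjusted p = 0.0365), of glutathione synthesis, fell. Nox4, a producer of hydrogen peroxide (chromosome 7, 87246096 to 87398710), had 150.5, 108 and 224 normalised reads in PH80, against 537, 622 and 506 in PH70 (log2 change -1.84, SE 0.23, adjusted p = 0.00258). PH80 replicate 3 was its highest PH80 library, less than 1 in 2 of the lowest PH70 library. The calls of Psat1 (3 and 0.0638), Psph (2 and 0.0636 without PH80 replicate 2), Herpud1 (3 and 0.0878), Gclc (7 and 0.175), Cat (8 and 0.181) and Manf (9 and 0.172 without PH80 replicate 1) ended with single libraries left out.

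Of the mitosis genes, 3 rose, and the differences of all members were positive. Hepatocytes that enter the cycle pass G1 with cyclin E, copy their DNA and then express the genes of mitosis through B-MYB, FOXM1 and the CCAAT and CHR elements of their promoters. Of 82 tested, 3 rose and 0 fell (1 called by edgeR and 14 by DESeq2). The called share was 3.66%, against 1.14% of all genes called higher and 3.99% called in either direction. All 82 had a positive difference (median 0.64), and 36 lay above PH70 without overlap and 0 below. Over all genes tested, 12.9% lay above and 14.3% below without overlap. Cdk1, the kinase that starts mitosis (chromosome 10, 69335146 to 69352938), had 2049, 3292 and 2116 normalised reads in PH80, against 1128, 1115 and 961 in PH70 (log2 change 1.19, SE 0.27, adjusted p = 0.0304). PH80 replicate 2 was the highest, and every PH80 library was at least 1.5 times above every PH70 library. Kif15, a spindle motor (log2 change 1.27, adjusted p = 0.0443), and Bora, an activator of Aurora A (log2 change 1.48, adjusted p = 0.04497), rose close to the threshold. Mki67, a marker of cycling cells, had 1298, 3119 and 1428 normalised reads in PH80, against 1228, 1157 and 1246 in PH70 and did not pass (a log2 difference of 0.57, SE 0.33, adjusted p = 0.328). Its groups did not overlap, though PH80 replicates 1 and 3 lay close to PH70. The mean of the mitosis list above the PH70 mean was 0.28, 1.23 and 0.53 in PH80, against -0.02, 0.03 and 0.00 in PH70. All PH80 libraries were above, with replicate 2 more than 2 times as far as the others, and the median without it was 0.36.

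Of 29 G1 cyclins and cycle inhibitors, 3 rose and 1 fell (13.8% called, against 3.99% of all genes). Mybl1, a MYB family factor (chromosome 1, 9667415 to 9700209), had 620.2, 788 and 723 normalised reads in PH80, against 90.2, 87.7 and 176 in PH70 (log2 change 2.65, SE 0.30, adjusted p = 0.000943). It had the smallest adjusted p of all genes called higher. Ccne1, cyclin E1, had 222, 352 and 355 normalised reads in PH80, against 111, 121 and 109 in PH70 (log2 change 1.41, SE 0.23, adjusted p = 0.00772), and E2f2 rose too (log2 change 1.04, adjusted p = 0.0259). Rbl2, a pocket protein of quiescent cells, fell (log2 change -1.19, adjusted p = 0.0473). The calls of Mybl1 and Ccne1 were kept in all 26 alternatives. Of 49 S phase genes, 37 had a positive difference (median 0.24), yet the 1 called member, the replication factor Mcm10, fell, with 378, 339 and 475 normalised reads in PH80, against 2015, 1563 and 754 in PH70 (log2 change -1.76, SE 0.33, adjusted p = 0.0138). The calls of Cdk1 (5 and 0.116), Kif15 (8 and 0.166), Bora (9 and 0.1505), E2f2 (5 and 0.0854 without PH70 replicate 3), Rbl2 (9 and 0.202) and Mcm10 (4 and 0.0778) ended with single libraries left out.

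The Cdk1 promoter is shown for its mitotic elements (chr10:69352863-69353162, minus strand, same source and layout), with 3 CCAAT boxes (as ATTGG on the reverse strand) and 2 TTTGAA letters of the CHR in capitals.
Cdk1: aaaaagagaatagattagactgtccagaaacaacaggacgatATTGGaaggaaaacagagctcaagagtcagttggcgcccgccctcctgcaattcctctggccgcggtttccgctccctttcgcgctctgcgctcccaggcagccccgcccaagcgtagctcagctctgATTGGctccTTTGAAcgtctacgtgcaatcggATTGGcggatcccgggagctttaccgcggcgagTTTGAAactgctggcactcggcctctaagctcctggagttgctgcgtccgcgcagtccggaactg

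**Figure D3:**
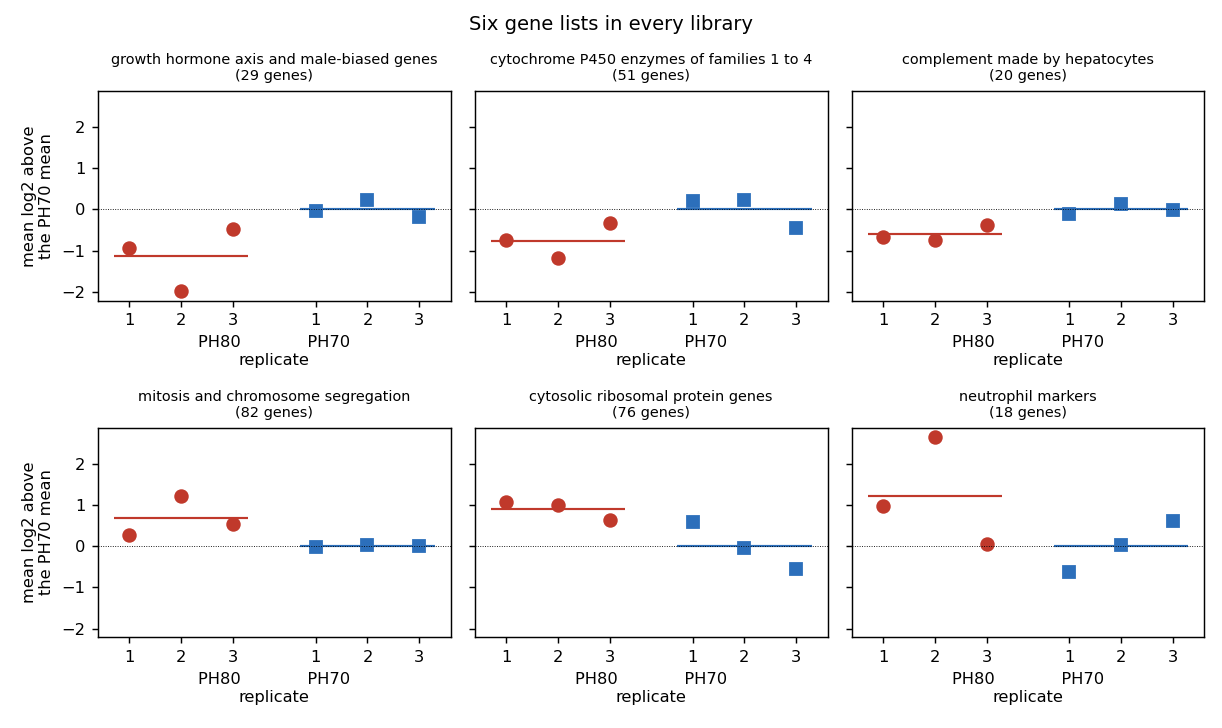
Mean log2 value of the tested members of 6 gene lists in each library, relative to the mean of the 3 PH70 libraries; red circles are PH80 and blue squares PH70 replicates 1 to 3, and lines are group means. PH80 replicate 2 is the lowest for growth hormone and P450 genes and the highest for mitosis and neutrophil genes, and PH70 replicates 1 to 3 spread widely for ribosomal protein genes.

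Cytoskeleton genes rose in part, and no ribosomal protein gene passed. Of 46 actin and tubulin genes, 4 rose and 0 fell (median 0.43): the tubulins Tuba8 (598, 773 and 488 in PH80 and 140.4, 236 and 223 in PH70, log2 change 1.64, adjusted p = 0.00889), Tuba1c (log2 change 1.10, adjusted p = 0.0266) and Tubb3 (log2 change 2.07, adjusted p = 0.0475), and the calcium-binding S100a6 (log2 change 1.18, adjusted p = 0.0491). Dynll1, a dynein light chain (chromosome 5, 115297110 to 115300999), had 2854, 3678 and 2954 normalised reads in PH80, against 1291, 939.6 and 747 in PH70 (log2 change 1.70, SE 0.27, adjusted p = 0.00626). Of 60 ribosome biogenesis genes 2 rose, Gar1 (log2 change 0.88, adjusted p = 0.03200) and Nob1 (log2 change 0.74, adjusted p = 0.0495). This is 3.33%, against 1.14% of all genes called higher and 3.99% called in either direction. Of the 60, 43 had a positive difference, as had 51.2% of all genes tested. Without overlap, 20 lay above PH70 and 3 below, against 12.9% and 14.3% of all genes tested. Rplp1, of the ribosomal stalk, had 38294, 29326 and 24419 normalised reads in PH80, against 24951, 14258 and 10275 in PH70 (a log2 difference of 0.97, SE 0.42, adjusted p = 0.203). All 76 cytosolic ribosomal protein genes had a positive difference (median 0.94), but none passed (unadjusted p under 0.05 in 47, called by edgeR 0 and by DESeq2 2). They held 3.94%, 3.74% and 2.87% of all normalised reads in PH80, against 2.55%, 1.58% and 1.27% in PH70. PH70 replicates 2 and 3 were the lowest and PH80 replicate 1 the highest, the libraries in which longer transcripts were relatively higher (PH70) or lower (PH80). With the trend of each library with transcript length and GC content removed, the median was 0.44. For 73 nuclear-encoded respiratory chain genes the median was 0.44, and it turned to -0.07 with that trend removed. None of the 73 passed (unadjusted p under 0.05 in 9, called by edgeR 0 and by DESeq2 2). The median transcript was 3600 bases long for genes called lower and 2255 for genes called higher, against 3113 for all genes tested. The part of transcript length in these calls was not tested beyond that alternative, in which 455 genes fell and 225 rose, 440 of them among the 489. In it, the calls of Tnfrsf12a (adjusted p = 0.0598), Gar1 (0.120), Nob1 (0.0647), Tubb3 (0.0624) and S100a6 (0.229) were lost. So were those of Klkb1 (0.0505), Bdh1 (0.0511), Stat5b (0.0518), Inhbe (0.0622), Sardh (0.0639), Dlc1 (0.0814) and Ccl6 (0.0840). The calls of Tuba1c (5 and 0.0989 without PH80 replicate 2), Tubb3 (9 and 0.1604 without PH80 replicate 1), S100a6 (8 and 0.175 without PH80 replicate 1), Gar1 (5 and 0.149) and Nob1 (10 and 0.152 without PH80 replicate 2) ended with single libraries left out.

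Growth factor and receptor genes were called in both directions. Of 42 tested, 2 rose and 5 fell (16.7% called, against 3.99% of all genes, median -0.03). Tnfrsf12a, the TWEAK receptor Fn14 (chromosome 17, 23675445 to 23677468), had 3451, 4342 and 4158 normalised reads in PH80, against 955, 999.9 and 1505 in PH70 (log2 change 1.81, SE 0.29, adjusted p = 0.00665), and the EGF receptor ligand Hbegf had 87.2, 126 and 83.3 normalised reads in PH80, against 40.5, 23.8 and 51.3 in PH70 (log2 change 1.38, adjusted p = 0.0284). Both stood above all PH70 libraries. Erbb3, a coreceptor for neuregulins (log2 change -1.29, adjusted p = 0.0155), Lgr4, a receptor for R-spondins (log2 change -1.06, adjusted p = 0.0239), the IL-6 receptor Il6ra (60.5, 183 and 169 in PH80 and 378, 466 and 355 in PH70, log2 change -1.68, adjusted p = 0.0327) and Inhbe, a hepatic activin subunit (log2 change -1.56, adjusted p = 0.0414), fell with Gdf15. Among 20 BMP and TGF-beta targets, Id1 (1577, 1643 and 859 in PH80 and 468, 489.9 and 482 in PH70, log2 change 1.44, adjusted p = 0.0255) and Id3 (log2 change 1.08, adjusted p = 0.0287) rose and 1 gene fell. The calls of Id1 (adjusted p = 0.0965) and Id3 (0.0690) were lost with the length and GC trend removed. The calls of Hbegf (4 and 0.1398), Erbb3 (4 and 0.0687 without PH80 replicate 1), Lgr4 (5 and 0.126), Il6ra (4 and 0.143), Inhbe (7 and 0.192), Id1 (5 and 0.105) and Id3 (5 and 0.138) ended with single libraries left out.

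A few markers of progenitor, duct and fetal cells rose. Of 30 tested bile duct and progenitor markers 2 rose and 0 fell (6.67% called, against 3.99% of all genes), and the median was 0.00. Prom1, a surface protein of progenitor and duct cells (chromosome 5, 43993620 to 44102032), had 385, 388 and 204 normalised reads in PH80, against 10.9, 16.4 and 35.7 in PH70 (log2 change 3.995, SE 0.65, adjusted p = 0.00714). Ly6d, a GPI-anchored surface protein (chromosome 15, 74762056 to 74763620), had 9209, 3451 and 5251 normalised reads in PH80, against 209, 259.6 and 921 in PH70 (log2 change 3.90, SE 0.67, adjusted p = 0.00889). The lowest PH80 library of Ly6d held over 3 times the highest PH70 library. The summed values of the list were 82204 to 148404 in PH80 and 59040 to 184172 in PH70, with the highest sum in PH70 replicate 3. Of 14 tested fetal liver genes, 3 rose and 0 fell (21.4% called, against 3.99% of all genes, median 0.52). Afp, alpha-fetoprotein, had 442, 466 and 442 normalised reads in PH80, against 115, 100.5 and 118 in PH70 (log2 change 2.01, adjusted p = 0.0351), with the PH80 values close together and about 4-fold above PH70. Tff3 (log2 change 1.33, adjusted p = 0.0491) and Scd2 rose near the threshold, and the call of Tff3 was lost with the length and GC trend removed (adjusted p = 0.481). The calls of Ly6d (1 and 0.0619), Afp (7 and 0.1400) and Tff3 (9 and 0.188 without PH80 replicate 1) ended with single libraries left out.

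Further genes with strong increases are known from other epithelia or have less defined roles in liver. Amn, the amnionless protein that anchors cubilin, had 243, 206 and 150.0 normalised reads in PH80, against 39.9, 40.2 and 24.5 in PH70 (log2 change 2.49, SE 0.37, adjusted p = 0.00492), and Inava, of epithelial barrier and innate signalling, had 443, 386 and 434 normalised reads in PH80, against 58.1, 56.7 and 127 in PH70 (log2 change 2.47, SE 0.38, adjusted p = 0.00575). Tmem141 had 2311, 2022 and 1602 normalised reads in PH80, against 568, 483 and 559.7 in PH70 (log2 change 1.87, adjusted p = 0.00699). No PH80 library of these genes came near PH70. Wfdc3 had 433, 262 and 207 normalised reads in PH80, against 14.5, 7.31 and 62.4 in PH70 (log2 change 3.83, adjusted p = 0.0135), and Sptbn4, a spectrin, had 23.9, 38.1 and 17.7 normalised reads in PH80, against 1.82, 1.83 and 0 in PH70 (log2 change 3.72, adjusted p = 0.00889), at values near the lower limit in PH70. The gene with the smallest adjusted p of all was on the lower side: B3galt1, a galactosyltransferase (chromosome 2, 67565871 to 68122689), had 146, 170.5 and 203 normalised reads in PH80, against 556, 665 and 669 in PH70 (log2 change -1.86, SE 0.17, adjusted p = 0.000646). Dsg1c (log2 change -3.46, adjusted p = 0.00373) and Dsc2 (log2 change -1.17, adjusted p = 0.0276), cadherins of desmosomes, fell among 33 keratin, desmosome and tight junction genes (6.06% called, against 3.99% of all genes). Bmf (log2 change -2.06, adjusted p = 0.0236) and Casp6 (log2 change -0.83, adjusted p = 0.0254), of cell death, fell among 33 apoptosis and necroptosis genes (6.06% called), and Dlc1, known as a tumour suppressor in liver (log2 change -0.74, adjusted p = 0.0424), fell among 17 YAP targets (5.88% called). The calls of Wfdc3 (2 and 0.0737), Dsc2 (5 and 0.132), Bmf (4 and 0.104), Casp6 (4 and 0.132) and Dlc1 (8 and 0.142 without PH80 replicate 2) ended with single libraries left out.

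**Figure D4:**
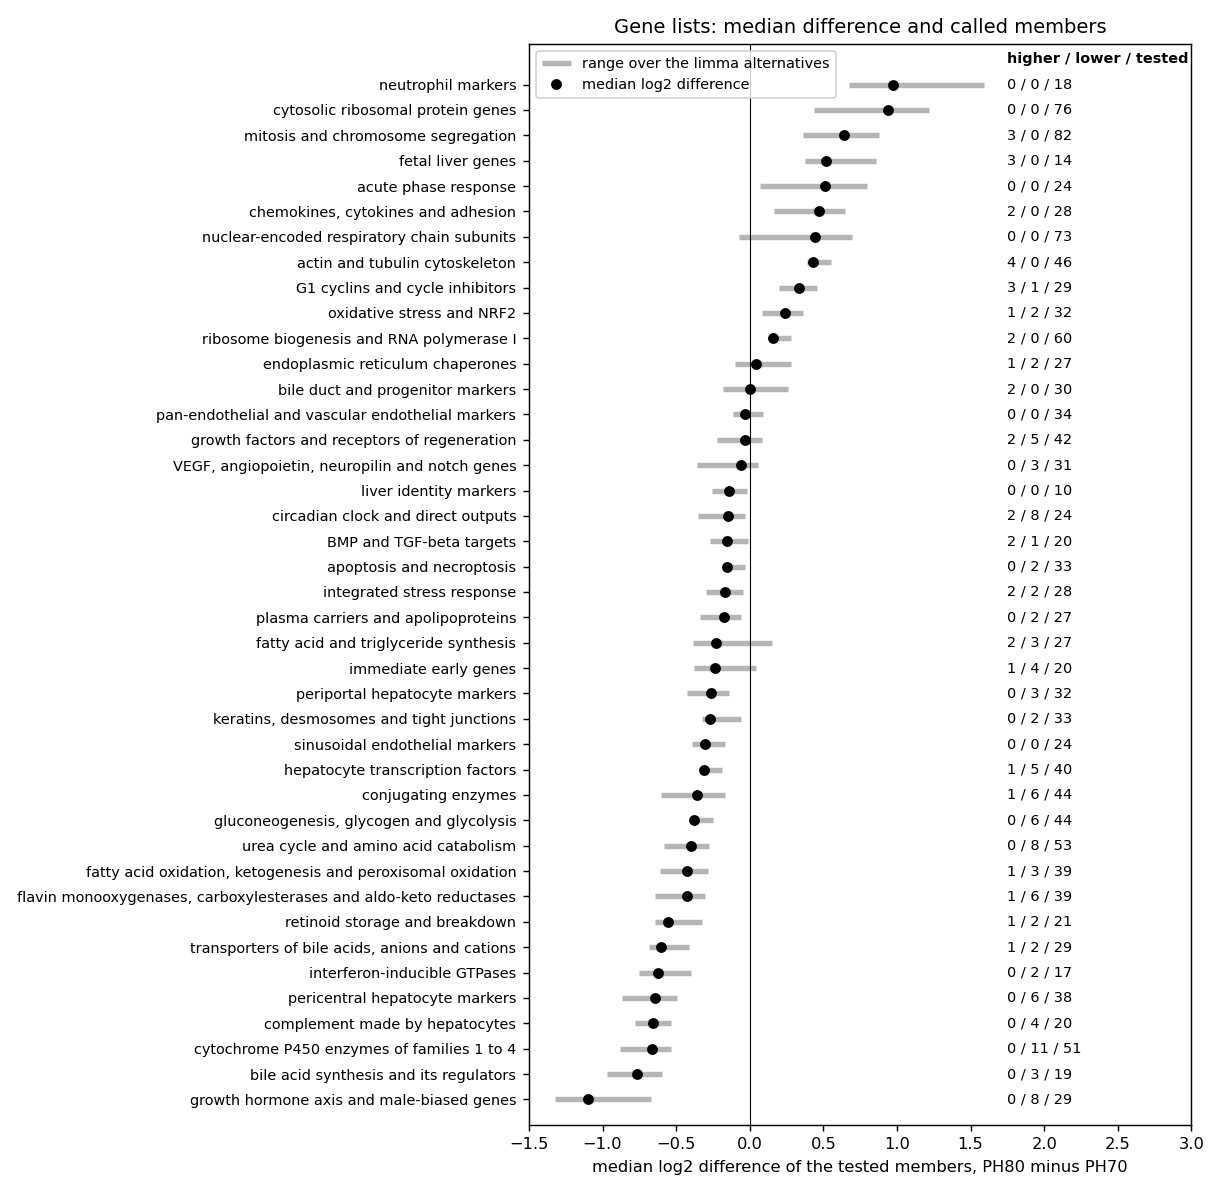
Black points are the median log2 difference, PH80 minus PH70, of the tested members of each list, and grey bars its range over the limma alternatives; numbers at the right count members called higher, called lower and tested. Medians of hepatocyte metabolism lists lie below 0 and those of mitosis, ribosomal proteins and neutrophils above. The bars of several lists cross 0, among them the respiratory chain, fatty acid and triglyceride synthesis, growth factors, immediate early genes and bile duct markers.

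Markers of non-hepatocyte cells gave few calls, and those of leukocytes followed single libraries. Of 30 listed neutrophil markers 18 passed the filter and none was called (unadjusted p under 0.05 in 7, called by edgeR 0 and by DESeq2 5). All 18 had a positive difference (median 0.97, and 0.67 without PH80 replicate 2). Over the 29 listed markers in the table, those below the filter included, summed values were 40764 to 131718 in PH80 and 23976 to 28893 in PH70. Lcn2, which hepatocytes also make in the acute phase, and Wfdc21 took most of these sums: Lcn2 had 20639, 84830.1 and 12048 normalised reads in PH80, against 2658, 8048 and 10110.4 in PH70 (a log2 difference of 2.20, SE 0.87, adjusted p = 0.169) and Wfdc21 had 42016, 34198 and 25310.3 normalised reads in PH80, against 24421, 14578 and 11727 in PH70 (a log2 difference of 1.04, SE 0.54, adjusted p = 0.279). The granule protein gene S100a8 had 150.5, 2369 and 98.95 normalised reads in PH80, against 32.1, 71.3 and 114 in PH70, so that PH80 replicate 2 stood apart and the other 5 libraries overlapped. Ltf and Camp, of neutrophil granules, did not pass the filter: Ltf had 0, 15.7 and 0 normalised reads in PH80, against 0, 0 and 2.23 in PH70, and Camp had 1.41, 23.2 and 0 in PH80, against 0.605, 0 and 2.23 in PH70. PH80 replicate 2 was also the highest for the mitosis and acute phase lists and the lowest for growth hormone and P450 genes; the part of leukocytes in these results was not tested.

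Of 34 macrophage markers 1 fell and none rose (edgeR called 0 higher and DESeq2 2), while 28 had a positive difference (median 0.39, summed 28950 to 59788 in PH80 and 25065 to 38530 in PH70). The chemokines Ccl9 (14659, 15723 and 15567 in PH80 and 8422, 7050.5 and 5998 in PH70, log2 change 1.11, adjusted p = 0.0175) and Ccl6 (log2 change 1.40, adjusted p = 0.0491) rose among 28 chemokine, cytokine and adhesion genes (7.14% called, against 3.99% of all genes). The interferon-inducible GTPases Gbp6 (log2 change -1.57, adjusted p = 0.0266) and Gbp10 (8.44, 2.99 and 33.3 in PH80 and 135, 87.7 and 44.6 in PH70, log2 change -2.91, adjusted p = 0.0293), which have close copies, fell among 17 (median -0.62), and none of 44 other interferon response genes passed (unadjusted p under 0.05 in 9, called by edgeR 0 and by DESeq2 1). T cell and NK cell markers were highest in PH80 replicate 1 (10 of 35 tested, 0 called). Over the 30 in the table, those below the filter included, they summed to 561 to 1581 in PH80 and 479 to 744 in PH70. Of the B cell, erythroid, pancreas, muscle, fat and mesothelium lists, Ly6d, described above, rose, and Car1 (log2 change -2.85, adjusted p = 0.0373) and Cela2a (log2 change -2.15, adjusted p = 0.0384) fell, both at low values. The annotated span of Cela2a overlaps that of Casp9 on the opposite strand. The calls of Ccl9 (4 and 0.0843), Gbp6 (5 and 0.129), Gbp10 (4 and 0.126), Ccl6 (9 and 0.164 without PH80 replicate 2), Car1 (8 and 0.149) and Cela2a (6 and 0.138) ended with single libraries left out.

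Endothelial markers, which bear on the vascular damage named in the study's title, gave no call. None of 24 sinusoidal markers (unadjusted p under 0.05 in 7, called by edgeR 0 and by DESeq2 1; median -0.30) and none of 34 vascular markers passed (the same counts were 4, 0 and 0; median -0.03). Of the 24 sinusoidal markers, 18 had a negative difference, 9 lay below PH70 without overlap and 1 above. Of the 34 vascular markers, 19 had a negative difference, 4 lay below without overlap and 1 above. Over all genes tested, 14.3% lay below and 12.9% above without overlap. Pecam1 had 502, 541 and 365 normalised reads in PH80, against 389.8, 539 and 642 in PH70, and Stab2, a scavenger receptor of sinusoidal cells, had 894, 1185 and 683 normalised reads in PH80, against 1158, 950.5 and 1238 in PH70, with overlapping groups (a log2 difference of -0.15, SE 0.22, adjusted p = 0.722 for Pecam1 and a log2 difference of -0.30, SE 0.23, adjusted p = 0.454 for Stab2). Vegfa, the main endothelial growth factor, had 2233, 1747 and 2277 normalised reads in PH80, against 2755, 2189.9 and 1628 in PH70 (a log2 difference of -0.05, SE 0.30, adjusted p = 0.945). Of 31 genes of VEGF, angiopoietin, neuropilin and notch signalling, Nrp1 (1014, 961 and 1079 in PH80 and 1519.7, 1919 and 1828 in PH70, log2 change -0.78, adjusted p = 0.0217), Nrp2 (log2 change -1.09, adjusted p = 0.0363) and Angptl2 (log2 change -1.11, adjusted p = 0.0138) fell and none rose. The call of Nrp2 was lost with the length and GC trend removed (adjusted p = 0.0558), and those of Nrp1 (4 and 0.121), Nrp2 (6 and 0.143) and Angptl2 (2 and 0.0817) ended with single libraries left out. None of 44 stellate cell and matrix markers passed (unadjusted p under 0.05 in 3, called by edgeR 0 and by DESeq2 0).

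All 6 short promoter motifs searched had a larger share among genes called lower than among genes tested. All but CACGTG also had a larger share among genes called higher. For 3 of the 6 these shares rested on few genes. The D-box was in 4 genes called lower and 2 called higher, TAGGTCA in 12 and 4, and CAAAGTCCA in 5 and 1. Letters were searched on both strands in RefSeq promoters (GRCm38.p6), none contains another, and shares are of genes with a promoter in the table, 266 called lower, 113 called higher and 9861 tested. CACGTG was present in 13.5% of genes called lower and 9.74% of genes called higher, against 11.6% of genes tested (7.15% of all 32851 promoters). The D-box TTATGTAA, bound by DBP, TEF and HLF, was present in 1.504% and 1.77%, against 0.771% (0.938% of all promoters), and TAGGTCA in 4.51% and 3.54%, against 2.52% (2.61%). CAAAGTCCA was present in 1.88% and 0.885%, against 0.659% (0.475%), CCAAT in 50% and 46.9%, against 43% (37.4%), and TTTGAA in 16.9% and 17.7%, against 14.5% (17.9%). A match of letters is a description and not a binding site, and these shares were not tested.

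**Figure D5:**
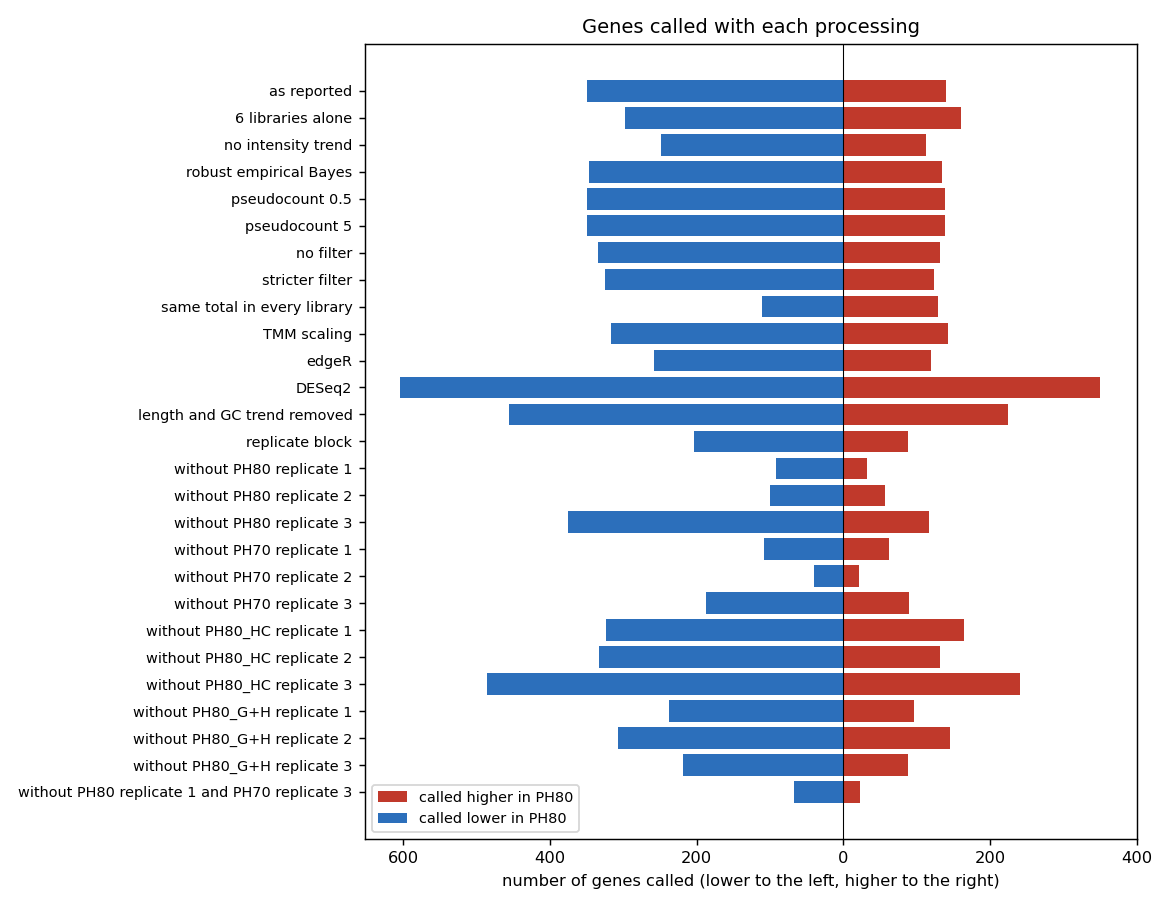
Bars count the genes called higher (red, right) and lower (blue, left) in PH80 under the reported analysis and each alternative. Calls range from 61 without PH70 replicate 2 to 954 with DESeq2, and more genes are called higher than lower only with every library at the same total.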

How the data were processed

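RNA from liver remnants was sequenced from stranded poly(A) libraries, per the labels' protocols. The deposited table holds 1 normalised read value (a signal) per gene and library. Per the submitters' processing notes the tools and builds named are DESeq2, GRCm38 and mm10; the aligner, counter and annotation were not given in these sources. Dividing by the smallest step of each library gave whole reads within 0.01 for 100% of values, which gave the depths and the counts for edgeR and DESeq2. No mitochondrial symbol is in the table.

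Genes reaching 10 in 3 or more of the 6 libraries were fitted with limma 3.58.1 (intensity trend, R 4.3.3) on log2(value + 1), with all 12 libraries and group as the factor, two-sided, with Benjamini-Hochberg adjustment over 12268 genes and a threshold of 0.05. Fold changes on this scale understate the change of low genes. Alternatives included edgeR 4.0.16 (quasi-likelihood), DESeq2 1.42.0, other scalings, filters and pseudocounts, and leaving out each library. The fits were tested on simulated data. Coordinates are on GRCm38 (13512 of 13554 symbols matched to the annotation).

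Whether the 3 libraries of each group are 3 animals is not in the labels. The p-values then speak only of the spread among these libraries, which may be technical. The comparison, the gene lists and the rule for naming genes were chosen with earlier results of these data known, so lists are counted and not tested, and lists share genes. Named were up to 12 genes per direction with the smallest adjusted p (mean of at least 50, no overlap), up to 4 called members of each list, the 2 most abundant members of lists without calls, the 4 most abundant genes, the 6 largest changes per direction and 8 preset genes. The 2 most abundant members of some lists without calls, and single called members of 4 lists, are not reported here. The following were chosen after their values were seen: Tef, Nr1d2, Cry2, Bhlhe40, Cry1, Npas2, Gbe1, Insr, Txnip, Cyp1a2, Cyp2c54, Ghr, Stat5b, Ppara, Glul, Sardh, Junb, Hbegf, Il6ra, Inhbe, S100a8, Ltf, Camp and all genes under other observations.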

Additional observations from a re-analysis of the deposited data

How the results depend on the processing

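Of 489 calls (140 higher, 349 lower), DESeq2 made 954 (350 higher, 604 lower), of which 488 are among the 489, and edgeR made 377. Every library at the same total gave 240 calls, 129 higher and 111 lower. Removing the length and GC trend gave 225 higher genes. The labels number the libraries 1 to 3 in both groups, but deviations of same-numbered libraries from their group means correlated at 0.193, 0.0571 and -0.243, so the numbers were not taken as pairs. With the replicate block, 292 genes were called (88 higher, 204 lower), 283 of them among the 489. Leaving out each library in turn gave 61 to 726 calls, 21 to 241 higher and 40 to 485 lower; the lowest counts came without PH70 replicate 2 and the highest without PH80_HC replicate 3. Without PH80 replicate 1 and PH70 replicate 3 together, which have the steepest length slopes of their groups, 90 genes were called (23 higher, 67 lower). The cause of these differences in number was not tested.

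No called gene named in the text changed direction in any of the 26 alternatives. The reversals were all of uncalled genes (log2 differences of -0.15 to 0.35 as reported). Trf turned to 0.0309 with the same total, 0.0206 without PH80 replicate 1, 0.0208 without PH80 replicate 3 and 0.155 without PH80 replicate 1 and PH70 replicate 3 together. It ranged from -0.309 (without PH80 replicate 2) to 0.0451 (without PH70 replicate 3) with single libraries left out. Vegfa turned to 0.0720 with the same total, 0.0509 with the length and GC trend removed and 0.0745 without PH80 replicate 2. Its range was -0.246 (without PH70 replicate 3) to 0.133 (without PH70 replicate 1). Ahsg turned to 0.0167 without PH80 replicate 1 and PH70 replicate 3 together, with a range of -0.225 (without PH80 replicate 3) to 0.0335 (without PH80 replicate 1). Pecam1 turned to 0.0127 without PH70 replicate 3 and ranged from -0.347 (without PH70 replicate 1) to 0.0222 (without PH80 replicate 3). Hp ranged from -0.0566 and Hpx from -0.0932 (both without PH80 replicate 2) to 0.582 and 0.396 (both without PH80 replicate 3).

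PH70 replicate 3, the shallowest of the 6 libraries with 9.72 M reads (M, 1e6), limits the precision of genes of low value. With 3 libraries a group, many calls rest on any single one. The standard error of Alb in the trend fit was 0.76, against a median of 0.30 over genes with a mean of at least 10000.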

Other observations

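The genes in this part are outside the lists, were chosen after their values were seen and are given as values only. Several genes known from autophagy fell beside Ulk1 and Gabarapl1. Calcoco1, a selective autophagy receptor, had 187, 277 and 199 normalised reads in PH80, against 589, 659.9 and 758 in PH70 (log2 change -1.61, adjusted p = 0.00442). Atg14, a subunit of the lipid kinase that starts the autophagosome, had 153, 187 and 211 normalised reads in PH80, against 384, 484 and 314 in PH70 (log2 change -1.09, adjusted p = 0.0122). Ulk2 (log2 change -0.93, adjusted p = 0.0141), Wipi1 (log2 change -1.07, adjusted p = 0.0239) and Atg7 (log2 change -0.84, adjusted p = 0.0202) fell too. Flcn, of nutrient sensing at the lysosome, had 457, 390.3 and 299 normalised reads in PH80, against 1256, 956 and 1093 in PH70 (log2 change -1.54, adjusted p = 0.00492), and Deptor, an inhibitor of mTOR, had 764, 499 and 859 normalised reads in PH80, against 1886, 2033 and 2022 in PH70 (log2 change -1.52, adjusted p = 0.004602). The groups of these 7 genes did not overlap, and the calls of Flcn and Deptor were kept in all 26 alternatives. Fbxo32, a ubiquitin ligase known from muscle wasting (log2 change -2.01, adjusted p = 0.00953), and Klf11 (log2 change -2.18, adjusted p = 0.00552) fell as well. Mug1, an abundant secreted protease inhibitor, had 8826, 12441 and 10445 normalised reads in PH80, against 29002, 29421 and 28518 in PH70 (log2 change -1.47, adjusted p = 0.00452), and Plpp3, a lipid phosphatase, had 561, 757 and 1021 normalised reads in PH80, against 2299, 2603 and 2174 in PH70 (log2 change -1.64, adjusted p = 0.00492). The 3 PH70 values of Mug1 were almost equal, and the highest PH80 value was below all of them.

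On the higher side, Raph1, a regulator of actin at the leading edge, had 2645, 3565 and 3064 normalised reads in PH80, against 1441, 1422 and 1338 in PH70 (log2 change 1.13, adjusted p = 0.00772), with narrow groups and a call in all 26 alternatives. Odc1 (log2 change 0.98, adjusted p = 0.0228) and Srm (log2 change 1.04, adjusted p = 0.0202), enzymes of polyamine synthesis, both rose. Cks1b, which binds cyclin-dependent kinases, had 806, 957 and 700.0 normalised reads in PH80, against 412, 303 and 299 in PH70 (log2 change 1.28, adjusted p = 0.00772), and the kinetochore and centromere genes Ska2 (log2 change 1.28, adjusted p = 0.0239) and Cenpw (log2 change 1.45, adjusted p = 0.0202) rose. Snrpd1 (log2 change 1.13, adjusted p = 0.0124), Snrpf (log2 change 0.99, adjusted p = 0.0287), Lsm3 (log2 change 1.45, adjusted p = 0.0348) and Srsf3 (log2 change 0.97, adjusted p = 0.0274), all parts or regulators of the splicing machinery, rose without overlap between groups. With the length and GC trend removed, Snrpf had a log2 difference of 0.52 and lost its call (adjusted p = 0.224), Srm lost its call (0.0695), and the log2 changes of Snrpd1 (0.67), Lsm3 (0.897) and Cks1b (0.82) were smaller by over 1.5 times. Spink1, a trypsin inhibitor, had 1388, 177 and 433 normalised reads in PH80, against 103, 40.2 and 118 in PH70 (log2 change 2.57, adjusted p = 0.0287), with PH80 replicate 1 far above the others. Gldn, gliomedin, had 66.1, 81.5 and 110.4 normalised reads in PH80, against 7.87, 3.66 and 13.4 in PH70 (log2 change 3.34, adjusted p = 0.0141), at low values in PH70. The calls of Atg14 (2 and 0.0734), Ulk2 (3 and 0.07996), Wipi1 (4 and 0.116), Atg7 (5 and 0.0709), Fbxo32 (1 and 0.0638), Odc1 (4 and 0.101), Srm (4 and 0.07295), Cks1b (1 and 0.0544), Ska2 (5 and 0.0935 without PH80 replicate 2), Cenpw (4 and 0.0974), Snrpd1 (2 and 0.0638), Snrpf (5 and 0.1205 without PH80 replicate 1), Lsm3 (6 and 0.132), Srsf3 (5 and 0.131), Spink1 (3 and 0.148) and Gldn (1 and 0.0823) ended with single libraries left out (the number of the 12 fits and the highest adjusted p, reached without PH70 replicate 2 unless another is named).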
